A study of Homo sapiens with 4 samples.

Results

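The classical cadherins and catenins described here are the genes CDH1, CDH2, CDH3, CDH4, CDH6, CDH11, CDH13, CDH17, CTNNA1 and CTNND1, which were 10 of the 31907 gene names counted in the series. Members were found by gene name alone, and a member missing from a library was given 0 counts. All 10 had a count in at least 1 library. The series held 4 RNA-seq libraries of HGC-27, a human gastric cancer cell line grown as adherent cells. In 2 libraries the cells had received PBS, and in the other 2 they had received 200 ng/ml rIL-17B, recombinant human IL-17B protein, a cytokine of the IL-17 family. Both treatments lasted 48 h. The labels do not say whether the libraries of a group came from separate cultures, so p-values measure only the spread between these libraries, which may be technical. The labels name HGC-27 as the source of every sample, while their library protocol speaks of monocytes.

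Cadherins are transmembrane proteins that hold neighbouring cells together through calcium-dependent contacts. Type I cadherins (CDH1, CDH2, CDH3 and CDH4) and type II cadherins (CDH6 and CDH11) bind catenins through a conserved cytoplasmic tail. CTNNA1 (alpha-catenin 1) connects the cadherin and beta-catenin complex to actin, and CTNND1 (delta-catenin 1) binds nearer to the membrane and keeps cadherins at the cell surface. CDH13 is anchored by a lipid and has no such tail, and CDH17 is an intestinal cadherin with a short tail. CDH1, the epithelial cadherin, is the one best known in gastric cancer, where its loss marks the diffuse type, and a shift from CDH1 towards CDH2 is a common description of epithelial-mesenchymal transition.

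The 4 libraries held between 12888029 and 17555879 counts, and 3 counts, taken as the lowest level that can be shown, corresponded to 0.171 to 0.233 CPM (CPM being counts scaled to the library total). Intervals and this floor cover counting error only, since PCR copies are not independent molecules. The library labelled rIL-17B replicate 1 stood apart from the other 3. It listed 23033 gene names against 25632 to 26216, and 342 genes (2.09% of those tested) had at most 3 counts there and at least 100 in each other library, while no other library had any such gene. The chi-square per gene between the libraries of a group was 3.66 for PBS and 139 for rIL-17B. The summed level of 16 mesenchymal markers was 57942 and 56757 CPM with PBS, 2017 CPM in rIL-17B replicate 1 and 48670 CPM in the other rIL-17B library. None of the markers was at 0, but POSTN (15707, 11408, 1 and 14618 counts) and PDGFRA (2440, 2116, 1 and 2113) were under the floor of 3 counts in rIL-17B replicate 1. FN1 (fibronectin) had 526938 and 418314 counts with PBS, 2172 in rIL-17B replicate 1 and 481910 in the other rIL-17B library. It held most of the mesenchymal sum except in rIL-17B replicate 1, where it made up 149 of the 2017 CPM. Of the 16, 15 lay below both PBS libraries in each rIL-17B library, beside 27.5% of all genes tested. S100A4 went the other way, with 188, 186, 371 and 218 CPM. Neural and glial markers summed to 767, 1180, 61.6 and 550 CPM in the same order, with 11 of 20 at 0 in rIL-17B replicate 1, OLIG2 among them. The 20 epithelial markers summed to 1033, 1032, 2284 and 1290 CPM, a sum carried by the keratin genes KRT8 (601, 611, 1457 and 787 CPM), KRT7 (211, 197, 394 and 238 CPM) and KRT18 (169, 165, 355 and 207 CPM). The list did not move as one. Of its 12 tested genes, 7 were above both PBS libraries in each rIL-17B library (31.5% of all genes tested) and 1 below (27.5%). In rIL-17B replicate 1, 3 were at least 2-fold above the PBS mean (4.14% of all genes) and 2 at least 2-fold below (20.7%). The 2 below were KRT19 with 47, 43, 1 and 58 counts and VIL1 with 58, 35, 0 and 51. Whether these differences bear on the cadherin values below was not tested. In bulk libraries, fewer cells of a type and less RNA per cell cannot be told apart. As a check of the cell line label, the epithelial list gave mixed values. KRT8 and KRT18 were well counted in all 4 libraries and EPCAM had 39 to 78 counts, while TFF1 had no count and ESRP1, GRHL2 and CLDN3 had 0 or 1 count in each library. The 14 monocyte and leukocyte markers summed to 14.3, 15.5, 8.89 and 14.3 CPM, with 9 of them at 0 in rIL-17B replicate 1, among them PTPRC, the pan-leukocyte gene, which had 22 to 47 counts in the other 3. CSF1R went the other way, with 62, 72, 119 and 108 counts, and made up 8.14 of the 8.89 CPM in rIL-17B replicate 1. POSTN, PDGFRA, S100A4, KRT7, KRT19, VIL1, TFF1, ESRP1, GRHL2, CLDN3 and CSF1R were named after their values were seen.

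Over all libraries, 7 of the 10 members passed the filter on low counts and were tested. edgeR's quasi-likelihood test called 0 of the 16361 genes tested (0%) at an adjusted p of 0.05, and therefore 0 of the 7 members. At an unadjusted p of 0.05 it took 226 genes (1.38%), and of the members only CDH6. DESeq2 also called 0 genes, with 457 at an unadjusted p of 0.05. Without rIL-17B replicate 1, edgeR called 495 genes (0.642% of those tested as higher and 2.38% as lower), CDH6 among them as higher. Without rIL-17B replicate 2, it called 9376 genes (24.5% higher and 32.8% lower), among them CDH6 as higher and CDH2, CDH4, CDH11 and CDH13 as lower. In both of these fits the lone rIL-17B library was assumed to vary as the PBS libraries did.

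The median log2 fold change of the 7 tested members was -0.62, beside -0.03 over all genes tested. The members' median also depends on which of them pass the filter: it was -0.31 over the 6 with at least 10 counts in every library and -0.08 over all 10 with no filter. It was 0.03 without rIL-17B replicate 1 and -1.33 without rIL-17B replicate 2, and CDH11, which had the lowest fitted value, would leave the median of -0.62 as it is at any lower value. CDH6, CTNNA1 and CTNND1 exceeded both PBS libraries in each rIL-17B library, an arrangement found in 31.5% of all genes tested. CDH2, CDH11 and CDH13 lay below both PBS libraries in each, as were 27.5% of all genes. Only CDH4 overlapped between the groups, so 6 of 7 members lay on one side, against 59% of all genes, and the same 6 did so on the TMM scale. For CTNNA1, CTNND1 and CDH13 this side was within counting error in rIL-17B replicate 2. Its 95% Poisson intervals there overlapped those of PBS, as with CTNND1 at 221 to 235 CPM against 218 to 233 in PBS replicate 1. For CDH2, CDH6 and CDH11 they did not overlap. In rIL-17B replicate 1, 4 of the 7 members (CDH2, CDH4, CDH11 and CDH13) were at least 2-fold below the PBS mean, beside 20.7% of all genes, and CDH6 was at least 2-fold above it, beside 4.14%. In rIL-17B replicate 2 no member was 2-fold away from the PBS mean, beside 0.538% of all genes above and 2.08% below. The PBS libraries differed from each other 2-fold in 3.15% of genes and in no tested member. With 2 libraries against 2, an exact two-sided permutation test cannot give a p under 0.33, so none is given for single genes.

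**Figure D1:**
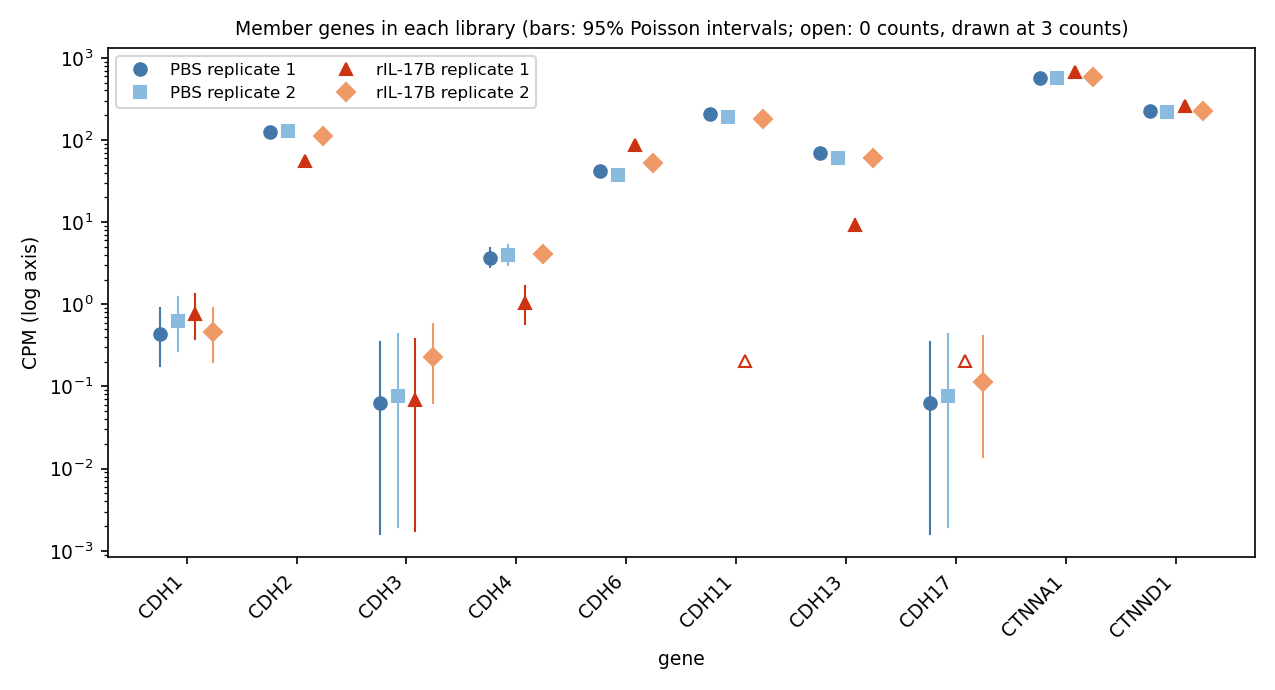
CPM of the 10 members on a log axis, 1 point per gene and library, with exact 95% Poisson intervals as bars and values of 0 counts drawn open at 3 counts. CDH11 had 0 counts in rIL-17B replicate 1 and at least 2475 in each other library, while CTNNA1 and CTNND1 lay close together in all 4 libraries.

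The type II cadherins lay on opposite sides of PBS. CDH11 (chr16:64943753-65126112, minus strand, GRCh38), a cadherin of mesenchymal and bone-forming cells, had 3306 and 2475 counts with PBS, 0 in rIL-17B replicate 1 and 3126 in the other rIL-17B library. These corresponded to 208, 192, 0 and 178 CPM, and the floor of 3 counts in that library is 0.205 CPM. Only rIL-17B replicate 1 stood low, while replicate 2 lay at 0.891 of the PBS mean, just under both PBS libraries. Taken at the floor of 3 counts per library, rIL-17B replicate 1 was at least 974-fold lower than the PBS mean of 200 ± 11.2 CPM (SD, n = 2). The edgeR test across all 4 libraries gave an adjusted p of 0.807 for CDH11. CDH11 was the only member among the 342 genes that had at most 3 counts in rIL-17B replicate 1 alone.

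CDH6 (chr5:31193750-31329146, plus strand), a type II cadherin known from kidney and neural crest, lay above PBS. It had 660 and 482 counts with PBS, 1277 in rIL-17B replicate 1 and 921 in the other rIL-17B library, or 41.5, 37.4, 87.4 and 52.5 CPM. Both rIL-17B libraries were above both PBS libraries, beside 31.5% of all genes tested. Their 95% Poisson intervals were 82.6 to 92.3 and 49.1 to 56 CPM, against 38.4 to 44.8 and 34.1 to 40.9 CPM with PBS. These intervals cover counting error only, while the chi-square per gene was 3.66 even between the PBS libraries. The share of all genes with intervals apart was not counted. The first rIL-17B library was 2.21-fold and the second 1.33-fold above the PBS mean of 39.4 ± 2.9 CPM (SD, n = 2). The log2 fold change of CDH6 was 0.74 (SE 0.25), with an unadjusted p of 0.0467 in edgeR's test and an adjusted p of 0.661. Without rIL-17B replicate 1 it was 0.40 with an adjusted p of 0.0173 in edgeR, so the direction did not rest on the library that stood apart. Over all 9 alternatives the log2 fold change of CDH6 ran from 0.40 to 1.01 and its adjusted p, from edgeR or DESeq2, from 1.84e-21 without rIL-17B replicate 2 to 0.973 without PBS replicate 2. CDH2, CDH3, CDH4, CDH6, CDH13 and CTNNA1 overlap genes on the other strand. CDH2, CDH3, CDH11, CDH13 and CTNND1 overlap genes on their own strand. Strand use in counting is not given in the sources used here.

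CDH2 (chr18:27950966-28177446, minus strand), the neural cadherin, is a type I cadherin found in mesenchymal and nerve cells. It was counted 1993 and 1675 times with PBS, 815 times in rIL-17B replicate 1 and 1962 times in the other rIL-17B library, or 125, 130, 55.8 and 112 CPM. Both rIL-17B libraries were below both PBS libraries, the first 2.29-fold and the second 1.14-fold below the PBS mean of 128 ± 3.29 CPM (SD, n = 2). The log2 fold change of CDH2 was -0.65 (SE 0.43), with an adjusted p of 0.661 in edgeR. The difference between the rIL-17B libraries was larger than that of replicate 2 from PBS.

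The mRNA stretches below are shown because they code for part of the conserved catenin-binding tail in cadherins that lay on opposite sides of PBS. Each is 60 bases of coding sequence on the sense strand, from GENCODE 29 transcripts on GRCh38, and capitals mark the 43 positions identical in all 3 genes. They were taken as the in-frame, ungapped window with the most such positions within the last 90 coding bases of each gene. The CDH2 window lies at chr18:27952168-27952227, the CDH6 window at chr5:31323222-31323281 and the CDH11 window at chr16:64947633-64947692, each within 1 coding exon.
CDH2: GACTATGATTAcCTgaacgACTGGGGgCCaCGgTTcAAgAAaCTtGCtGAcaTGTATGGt
CDH6: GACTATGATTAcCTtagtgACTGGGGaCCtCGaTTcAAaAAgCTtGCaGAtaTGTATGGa
CDH11: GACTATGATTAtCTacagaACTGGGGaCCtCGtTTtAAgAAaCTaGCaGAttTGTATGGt
CDH2 and CDH6 were identical at 49 of the 60 positions (81.7%), and CDH11 shared 47 positions (78.3%) with each of them. The window ends 12 bases before the stop codon in CDH2, 24 in CDH6 and 27 in CDH11. Despite the likeness of the tails, the longest exact stretch shared by transcripts of CDH2 and CDH6 was 15 bases, of CDH2 and CDH11 14 bases, and of CDH6 and CDH11 19 bases. Among all member pairs the longest was 44 bases, between CDH1 and CDH6.

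CDH1 (chr16:68737225-68835548, plus strand) was close to the floor in every library. It had 7 and 8 counts with PBS and 11 and 8 with rIL-17B, or 0.44, 0.621, 0.753 and 0.456 CPM. The group means were 0.53 ± 0.128 and 0.604 ± 0.21 CPM (SD, n = 2 each), the groups overlapped, and the Poisson intervals of all 4 libraries ran from 0.177 to 1.35 CPM in all. A difference in CDH1 was not detectable at this depth, and the gene did not pass the filter for testing. Per kb of exon, CDH2 stood at 25.3, 26.3, 11.3 and 22.6 CPM in the 4 libraries and CDH1 at 0.0713, 0.1, 0.122 and 0.0738 CPM. CDH2 was thus the far more abundant of the pair in each library, the one that stood apart included.

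CDH4 (chr20:61252426-61940617, plus strand), the retinal cadherin, was a minor type I member with 59 and 52 counts with PBS, 15 in rIL-17B replicate 1 and 72 in the other rIL-17B library. Its levels were 3.71, 4.03, 1.03 and 4.1 CPM, so the groups overlapped and only the library that stood apart was low, 3.77-fold below the PBS mean. The log2 fold change of CDH4 was -0.62 (SE 0.80), with an adjusted p of 0.722 in edgeR, and it turned to 0.08 without rIL-17B replicate 1. CDH3 (chr16:68636189-68722616, plus strand), the placental cadherin, had 1 count in each of 3 libraries and 4 in rIL-17B replicate 2. This is at or near the floor, and no difference was detectable.

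The cadherins without the classical tail also divided into 1 well expressed gene and 1 near 0. CDH13 (chr16:82626803-83800640, plus strand), known from vessel and muscle cells, had 1093 and 776 counts with PBS, 136 in rIL-17B replicate 1 and 1045 in the other rIL-17B library. Its levels were 68.7, 60.2, 9.31 and 59.5 CPM. Replicate 1 was 6.93-fold below the PBS mean of 64.5 ± 6.02 CPM (SD, n = 2), while replicate 2 lay at 0.923 of it, less than 1 CPM under the lower PBS library. The log2 fold change of CDH13 was -0.93 (SE 0.98), with an adjusted p of 0.686 in edgeR. CDH17 had 1 and 1 counts with PBS and 0 and 2 with rIL-17B, all under the floor.

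The catenins differed least between libraries among the tested members. Per kb of exon, CTNNA1 was the highest member in each library, and CTNND1 was close to CDH2 with PBS, at 25.6 and 24.9 CPM against 25.3 and 26.3. CTNNA1 (chr5:138610967-138935034, plus strand) was counted 8999 and 7366 times with PBS and 9916 and 10369 times with rIL-17B, or 566, 572, 678 and 591 CPM. Both rIL-17B libraries were above both PBS libraries, by 1.19-fold and 1.04-fold over the PBS mean of 569 ± 4.05 CPM (SD, n = 2). The log2 fold change of CTNNA1 after TMM normalization was 0.08 (SE 0.12), with an adjusted p of 0.738 in edgeR. CTNND1 (chr11:57753243-57819546, plus strand) had 3585, 2825, 3758 and 4007 counts, or 225, 219, 257 and 228 CPM. It showed the same arrangement, 1.16-fold in replicate 1 and 1.03-fold in replicate 2 over the PBS mean of 222 ± 4.39 CPM (SD, n = 2), with a log2 fold change of 0.05 (SE 0.10) and an adjusted p of 0.787 in edgeR. CTNNA1 overlaps LRRTM2 and AC034243.1 on the other strand, and LRRTM2 itself had only 1 to 122 counts. CTNND1 overlaps AP001931.1 on its own strand, which had 1 to 5 counts.

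Levels of different genes were compared per kb of exon (the union of a gene's exons in GENCODE 29). The order was CDH2, CDH11, CDH13, CDH6 and CDH4 in both PBS libraries and in rIL-17B replicate 2. In rIL-17B replicate 1 it was CDH2, CDH6, CDH13, CDH4 and CDH1. CDH2 made up 49.7% and 52.8% of the summed cadherin level with PBS, 58% in rIL-17B replicate 1 and 48.9% in the other rIL-17B library. CDH11 made up 30.5%, 28.9%, 0% and 28.8% in the same order. CDH6 made up 6.58% and 6.08% with PBS and 36.3% and 9.18% with rIL-17B, above both PBS shares in each rIL-17B library. The summed share of type II cadherins was 37.1%, 35%, 36.3% and 38%, and that of type I cadherins 50.8%, 54.2%, 59.4% and 50.4%. These shares depend on the gene length used. With no length correction CDH11 led in PBS at 45.8% and CDH6 led in rIL-17B replicate 1 at 56.6%.

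**Figure D2:**
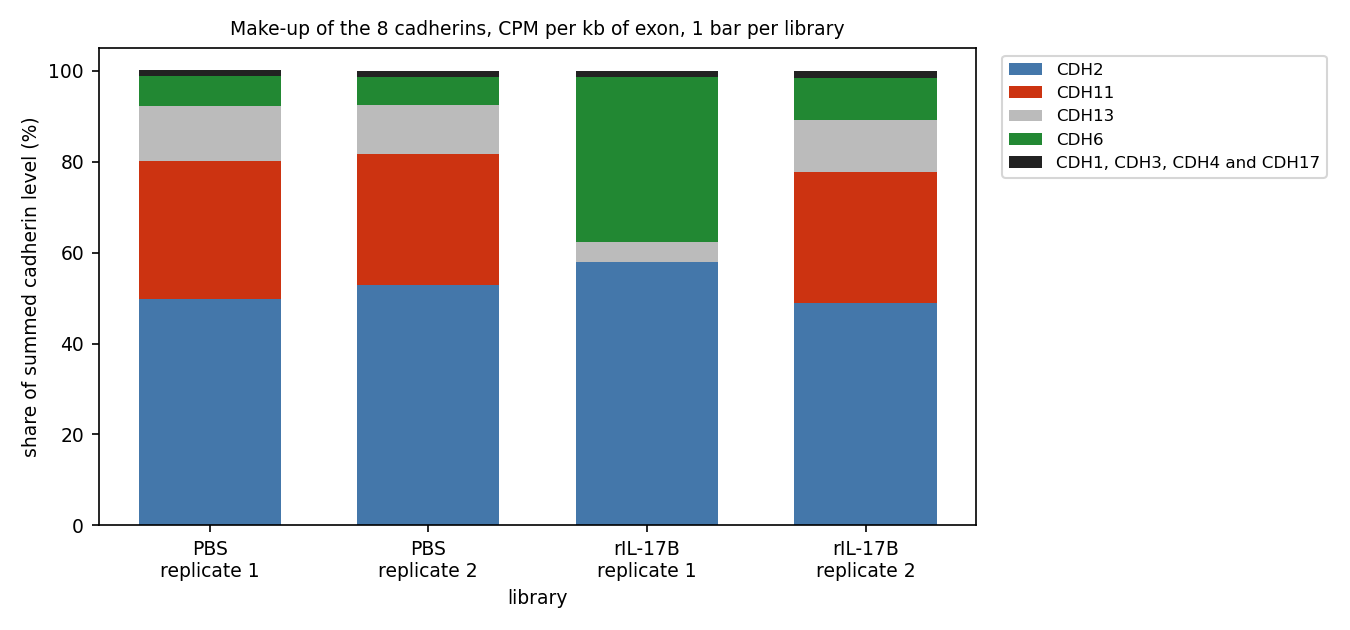
Share of each cadherin in the summed level of the 8 member cadherins, in percent of CPM per kb of exon, with 1 stacked bar per library. CDH11 held 28.8% to 30.5% in 3 libraries and 0% in rIL-17B replicate 1, where CDH6 held 36.3%.

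The ratio of catenin to cadherin messages was highest in the library that stood apart. The 6 cadherins that bind catenins (CDH1, CDH2, CDH3, CDH4, CDH6 and CDH11) summed to 44.8 and 44.3 CPM per kb with PBS, 18.6 in rIL-17B replicate 1 and 40.8 in the other rIL-17B library. This sum was 0.418 and 0.916 of the PBS mean in the rIL-17B libraries. CTNNA1 stood at 64.1, 64.7, 76.8 and 66.9 CPM per kb, so its ratio to the cadherin sum was 1.43 and 1.46 with PBS, 4.13 in rIL-17B replicate 1 and 1.64 in the other rIL-17B library. For CTNND1 the ratio was 0.572, 0.563, 1.57 and 0.636. The CDH6 to CDH2 ratio, also per kb, was 0.132 and 0.115 with PBS and 0.627 and 0.188 with rIL-17B. These ratios depend on the gene lengths used: on counts alone the CDH6 to CDH2 ratio was 0.331, 0.288, 1.57 and 0.469, which puts CDH6 above CDH2 in rIL-17B replicate 1. All 3 ratios were above both PBS values in each rIL-17B library, by far the most in the library that stood apart. This adds no separate finding. It follows from CTNNA1, CTNND1 and CDH6 lying above both PBS libraries and CDH2 and the cadherin sum below them.

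**Figure D3:**
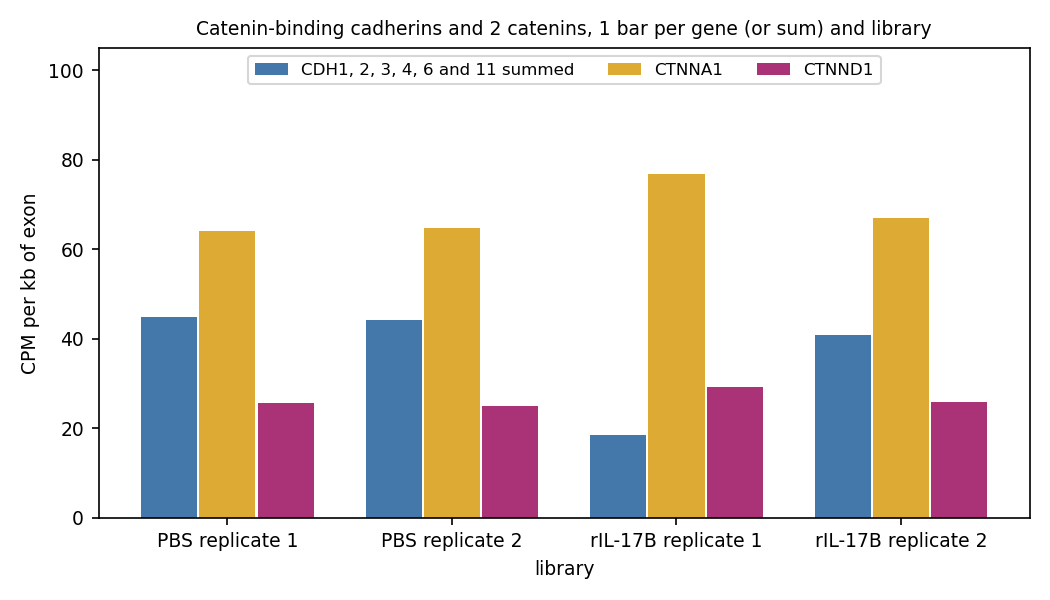
Summed level of the 6 catenin-binding cadherins and the levels of CTNNA1 and CTNND1, in CPM per kb of exon, with 1 bar per quantity and library. The cadherin sum lay between 40.8 and 44.8 in 3 libraries and at 18.6 in rIL-17B replicate 1, while CTNNA1 lay between 64.1 and 76.8 throughout.

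Among 22 partners of the cadherin and catenin complex, 21 had a count, 19 were tested and 0 were called, with 7 log2 fold changes above 0, 12 below and a median of -0.06. CTNNB1 (beta-catenin), which joins the cadherin tail to CTNNA1, had 5573 and 4838 counts with PBS against 5615 and 6115 with rIL-17B. Its log2 fold change was -0.06 (SE 0.11). JUP (plakoglobin), its relative that also serves desmosomes, had 3193, 2885, 5369 and 3701 counts. JUP was 1.73-fold above the PBS mean in rIL-17B replicate 1 and at 0.993 of it in replicate 2. VCL (vinculin), which strengthens the actin link under tension, was 1.14-fold and 1.06-fold above the PBS mean. The actin crosslinkers differed: ACTN1 had 7386, 5985, 2949 and 7171 counts and ACTN4 had 10673, 8868, 14845 and 12752. ACTN1 was below both PBS libraries and ACTN4 above both in each rIL-17B library, with adjusted p values of 0.661 for each in edgeR.

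Desmosomes, the keratin-anchored junctions built on their own cadherins, had 12 genes on their list, of which 7 had a count, 5 were tested and 0 were called. Their median log2 fold change was 0.52, and 4 of the 5 (DSG2, DSP, PKP3 and PKP4) exceeded both PBS libraries in each rIL-17B library, beside 31.5% of all genes tested. DSP (desmoplakin), the plaque protein that holds keratin, had 4814 and 3899 counts with PBS, 9160 in rIL-17B replicate 1 and 6412 in the other rIL-17B library. DSP was 2.07-fold and 1.21-fold above the PBS mean, with a log2 fold change of 0.63 (SE 0.26) and an adjusted p of 0.661 in edgeR. DSG2 (desmoglein 2), the only desmosomal cadherin tested, had 958, 770, 1790 and 1235 counts. DSG1, DSG3, DSG4, DSC1 and DSC3 had no count, and DSC2 had 1 count, in rIL-17B replicate 2. PKP3 and PKP4, armadillo proteins of the plaque, had log2 fold changes of 0.52 and 0.34, and PKP2, with 38 to 62 counts, had -0.11. The epithelial marker sum was also higher in both rIL-17B libraries, as given above, and its part in the desmosome values was not tested.

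Of 7 repressors of cadherin genes, all were tested and 0 were called, with a median log2 fold change of -0.34. ZEB1, a repressor of CDH1, had 1840 and 1582 counts with PBS, 432 in rIL-17B replicate 1 and 1647 in the other rIL-17B library, and was 4.03-fold below the PBS mean in the first and at 0.787 of it in the second. ZEB2 had 964, 776, 143 and 883 counts, and SNAI2 had 681, 474, 187 and 582. SNAI1 was closer together at 362, 253, 242 and 325 counts. ZEB1, ZEB2, SNAI1 and SNAI2, 4 of the 7, lay below both PBS libraries in each rIL-17B library on the CPM scale, beside 27.5% of all genes tested. TCF3, which encodes the E-box factors E12 and E47, was above both PBS libraries in each, beside 31.5% of all genes, with 3573, 3060, 5073 and 4333 counts. Its log2 fold change was 0.28 (SE 0.17). CDH1 remained near its floor in all 4 libraries alongside these values.

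**Figure D4:**
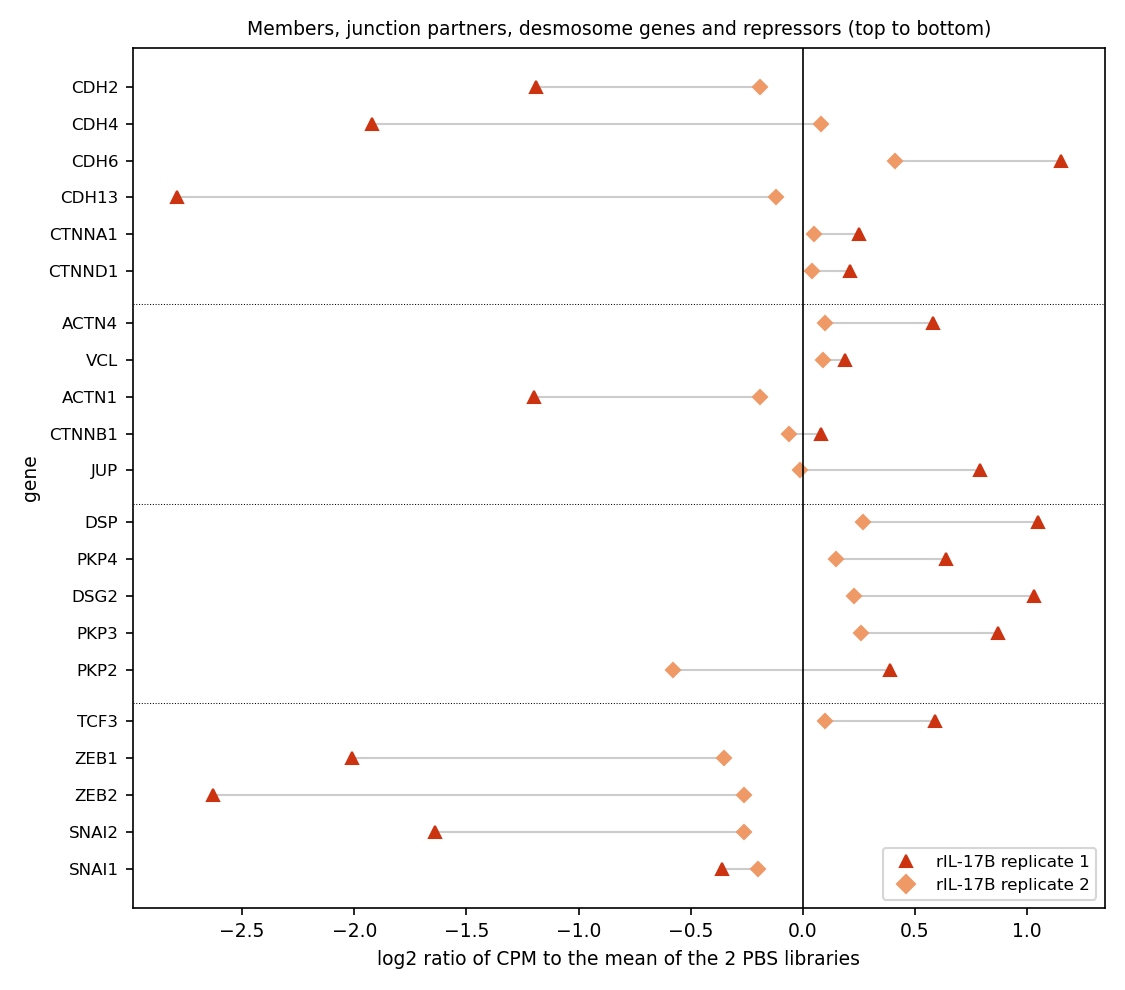
Log2 ratio of CPM in each rIL-17B library to the mean of the PBS libraries, for 6 of the 7 tested members, then junction partners, desmosome genes and repressors from top to bottom. CDH11 is left out because its count was 0 in rIL-17B replicate 1; for most genes the 2 rIL-17B libraries lay on the same side of PBS, with replicate 1 farther away.

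Of 18 further cadherins, 17 had a count, 9 were tested and 0 were called, with a median log2 fold change of -0.38. CDH24, a type II cadherin and the one with the most counts, had 263, 286, 216 and 293 counts. CDH15, the muscle cadherin, had 118 and 187 counts with PBS, 9 in rIL-17B replicate 1 and 104 in the other rIL-17B library, and CDH5, the endothelial cadherin, had 30, 90, 6 and 67. CDHR5, a cadherin of the intestinal brush border, had 23, 16, 53 and 30 counts, and CDH26 had 19, 17, 28 and 27. These 2 of the 9 exceeded both PBS libraries in each rIL-17B library, beside 31.5% of all genes tested. Another 4, CDH15 among them, lay below both PBS libraries in each, beside 27.5%.

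The genes whose pattern lay nearest to that of CDH2 were SLC20A2, RAB8B, REC8, ACTN1 and HSPG2, at Euclidean distances of 0.0314 to 0.0425 in centred log2(CPM + 0.5) over the 4 libraries. SLC20A2, for example, had 42.7, 44.2, 19.2 and 39 CPM. With only 4 libraries this is a weak selection, since 1638 genes lay within a distance of 0.5 of CDH2. For CDH1 the nearest were KMT2D, DNASE1L1, KIAA1671, TYK2 and FUK, but 8579 genes lay within 0.5, and the CDH1 pattern itself rests on 7 to 11 counts.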

How the data were processed

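The authors deposited 1 table of raw counts per library, the whole number of reads on each gene name, without normalization and without genes at 0 counts. Libraries were made by Smart-seq2 from an oligo-dT primer. The submitters' processing notes name hg38, HISAT2 2.1.0, HTSeq 0.6.0, Bowtie2 2.2.3 and TopHat2; annotation and strand use are not given in the sources used here. Names listed more than once (83 to 98 per library, 1.29% to 1.5% of counts) were used once, and 22 to 25 date-like entries (0.228% to 0.244%) were left out. Groups and replicate numbers came from the sample labels. The test was edgeR's, version 4.0.16 under R 4.3.3 (scaling factors by TMM of 0.97 to 1.07, filterByExpr, quasi-likelihood F test, Benjamini-Hochberg adjustment over 16361 genes, threshold 0.05). CPM used library totals, and levels between genes used GENCODE 29 exon lengths. Alternatives were DESeq2 1.42.0, upper-quartile normalization, other count filters, a replicate block, leaving out each library in turn, TMM-scaled CPM and other gene lengths. Tables were joined with Python 3.11.15. The members and gene lists were chosen with earlier results of these data known. Partners, desmosome genes, other cadherins and repressors were named by a rule, the 5 with the highest mean CPM of each list. The desmosomal cadherins that were not tested are named in addition. Intervals of CPM are exact Poisson intervals at 95%.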

Additional observations from a re-analysis of the deposited data

How the results depend on the processing

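Leaving out 1 library moved the number of genes called between 0 and 9376 (495 without rIL-17B replicate 1, 9376 without rIL-17B replicate 2, 0 without either PBS library), the median log2 fold change of the tested members between -1.33 and 0.03 (-0.31 and -0.08 under the other filters on low counts), and the number of members on one side of PBS between 6 and 9 (of all 10 members, counted or not). With 1 library left out, 2 libraries are compared with 1, and a gene then lies on one side more easily than with 2 against 2. The 10 members also included CDH1, CDH3 and CDH17, which were not tested. The share of all genes on one side was not counted for these comparisons, so nothing is concluded from the rise above 6. The other fits on all libraries called 0 genes: DESeq2, scaling by the upper quartile, testing every listed gene, and testing only genes with 10 or more counts in each library. CDH6 kept its direction in every fit but was past an unadjusted p of 0.05 neither under upper-quartile normalization nor without either PBS library. Of the member log2 fold changes under these alternatives, 55 kept direction and side of the threshold, 6 passed it without 1 of the rIL-17B libraries, and CDH4 ranged from -2.04 without rIL-17B replicate 2 to 0.08, a change of sign, without rIL-17B replicate 1. With a block for the replicate number, edgeR called 0 genes, with 173 at an unadjusted p of 0.05, so the block changed no call. Deviations of the same-numbered libraries had r = 0.08 across genes (2 pairs). The rIL-17B libraries lay far apart (chi-square per gene 139, against 3.66 for PBS). The correlation therefore cannot show whether the numbers mark pairs. Shares of the summed cadherin level moved with gene length. With the longest transcript, the PBS mean was 40.4% for CDH11 and 41% for CDH2, and rIL-17B replicate 1 had 52.2% for CDH2 and 41.8% for CDH6. With no length correction, the PBS mean was 45.8% for CDH11, 29.3% for CDH2, 9.04% for CDH6 and 14.8% for CDH13, and rIL-17B replicate 1 had 36.1% for CDH2, 56.6% for CDH6 and 6.03% for CDH13. CDH1, CDH3 and CDH17 had at most 11 counts in any library, which limits what can be said of them at this depth.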

Other observations

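Genes that move cadherins to and from the cell surface or cut them there formed a further list of 14, all tested and 0 called, with 6 log2 fold changes above 0, 8 below and a median of -0.03. Summed over the list, the PBS libraries held 1540 and 1546 CPM and the rIL-17B libraries 1627 and 1561 CPM. ADAM10, the protease that sheds cadherin ectodomains, had 162 and 162 CPM with PBS against 108 and 161 CPM, and CLTC, the clathrin heavy chain, had 542 and 542 CPM against 649 and 558 CPM. MGAT3, a glycosyltransferase that modifies CDH1, had 13, 10, 0 and 7 counts. These 3 genes were named after their values were seen. Endothelial markers summed to 46.5 and 50.1 CPM with PBS, 2.33 CPM in rIL-17B replicate 1 and 37.6 CPM in rIL-17B replicate 2, with PECAM1 at 80, 68, 6 and 95 counts.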
